A study of Homo sapiens with 6 samples.

Results

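The genes described here are 43 genes of DNA replication and S phase, taken by symbol from a list of names that was drawn up with earlier results of these data known, out of the 16306 genes of the deposited gene table. RNA was sequenced from PC9, a human lung adenocarcinoma cell line that carries an activating deletion in the receptor gene EGFR. The control group was 3 libraries of cells with a negative control shRNA (sh-NC 1, 2 and 3), and it was compared with 3 libraries of cells with an shRNA against RBM10 (shRBM10 A, B and C). RBM10 is a nuclear RNA-binding protein that acts in splicing. The labels give no treatment or time point other than the shRNA, and neither the labels nor the methods say which RBM10 shRNA these libraries carried, or whether replicates came from separate cultures, so that p-values measure the spread between these libraries, which may be technical. Library A is shRBM10 replicate 1, and B and C carry no replicate number because their columns match no sample title. All 43 genes were in the table and passed edgeR's filter on low counts, which kept 12620 genes.

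DNA replication is prepared in G1, when the origin recognition complex (ORC), CDC6 and CDT1 load the ring-shaped MCM2 to MCM7 helicase onto DNA. At the start of S phase CDC45 and the GINS complex join the loaded ring to form the active helicase, and DNA polymerases, primase, the sliding clamp PCNA and its loader follow. Cyclin E and E2F transcription factors drive this transition, and E2F activates many replication genes. In bulk RNA a lower level in each cell and fewer cells in S phase cannot be told apart.

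The total counts lay between 16606390 and 18864243 per library. The labels describe PC9 cells although their extraction text speaks of retinas, and that text names 2 library kits without saying which library was made with which. The epithelial markers EPCAM, KRT7, KRT8, KRT18, KRT19, CDH1, EGFR and CLDN4 were all tested. They summed to 566090 to 1022567 normalized counts in sh-NC and to 459080 to 667244 in shRBM10. Of 8 retina markers 4 were in the table and only NRL, at 61.7 to 156, passed the filter. Endothelial markers summed to 99.1 to 186 in sh-NC and to 48.9 to 68.4 in shRBM10, mostly from CDH5, and CLDN5 was at 0 in 5 of the 6 libraries. Fibroblast markers summed to 58.4 to 124 in sh-NC and 108 to 202 in shRBM10, with COL1A2 and COL3A1 at or near 0. Leukocyte markers summed to 1872 to 3326 and 1806 to 2323, mostly from CD68, with PTPRC at 6.65 or less, and astrocyte markers did not exceed 0.899. The part of these markers in the results was not tested. The library sh-NC 2 stood apart with a TMM factor of 0.738, against 1.03 to 1.08 in the other 5 libraries. It also differed from its group in some markers. In sh-NC 1 to 3, EGFR read 12221, 2566 and 13063 normalized counts and KRT8 220720, 471351 and 225110, while EPCAM was alike at 5734, 6192 and 5822. RBM10 itself read 1419, 1173 and 1457 normalized counts in sh-NC 1 to 3 against 532, 510 and 667 in shRBM10 A to C, a log2 fold change of -1.24 ± 0.23 (SE), so that the targeted gene was lower in every shRBM10 library (edgeR adjusted p = 0.1).

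The replication genes had lower RNA levels in most cases in the shRBM10 libraries, with differences of about 2-fold or more in genes of several roles. The phosphatase CDC25A was 2.9-fold lower, the helicase subunit MCM5 2.48-fold, the helicase activator GINS2 2.17-fold, the transcription factor E2F1 2.1-fold, the methylation cofactor UHRF1 2.08-fold, the clamp loader subunit RFC2 2.03-fold and the helicase activator CDC45 2.01-fold. The reverse was seen for RRM1, the large subunit of ribonucleotide reductase, which was 2.27-fold higher on average, and ORC2, a subunit of the origin recognition complex, at 1.86-fold. The groups of UHRF1 and of RRM1 overlapped. With the trend over GC content removed, as described below, CDC25A was at a log2 fold change of -1.31 and GINS2 at -1.02. MCM5 was then at -0.98, CDC45 at -0.79, UHRF1 at -0.78, RFC2 at -0.72 and E2F1 at -0.65, and RRM1 at 0.70 and ORC2 at 0.28. Of the 43 genes, 35 had a negative and 8 a positive log2 fold change, while 48.4% of all genes had a negative one. The median of the 43 was -0.55, against 0.03 over every gene in the test. A gene was called when its Benjamini-Hochberg adjusted p from edgeR's quasi-likelihood fit was under 0.05 and its log2 fold change beyond 1 in either direction, and 0 of the 43 genes were. The same rule called 2 of all genes tested (0.0158%). The lowest adjusted p among the 43 genes was 0.1, for CDC25A. DESeq2 at the same limits called 6 of the 43 lower, namely CDC25A, MCM5, CDC45, GINS2, E2F1 and RFC2, and 0 higher, against 0.998% and 3.73% of the genes it tested, and limma-voom called 0. At an unadjusted p under 0.05 in edgeR, 20 of the 43 genes were lower (46.5%) and 2 were higher (4.65%), against 8.60% and 15.7% of all genes. These 20 became 13 without shRBM10 B (3.01% of all genes in that fit), 25 without shRBM10 C (15.9%) and 21 without sh-NC 2 (12.7%). Of the 20, 7 were lower by more than 1 on the log2 scale, as were 1.53% of all genes. With sh-NC 1 and 3 taken as 1 replicate, 15 genes were lower and 1 was higher, against 6.93% and 14.5% of all genes. The 2 higher genes became 0 without sh-NC 2 (11.6% of all genes), without shRBM10 A (5.64%) or without shRBM10 B (7.95%), and 1 without sh-NC 3 (14%).

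In the plain comparison of values, all 3 shRBM10 libraries lay below all 3 sh-NC libraries for 24 of the 43 genes and above them for 1, against 16.2% and 13.8% of all genes. An exact two-sided permutation test of 3 against 3 libraries cannot give a p below 0.1. The summed normalized counts of the 43 genes were 43664, 56097 and 48876 in sh-NC 1 to 3 against 31995, 32394 and 33937 in shRBM10 A to C, so that the groups did not overlap. As a share of the deposited counts, with no scaling factor, the genes took 0.258%, 0.227% and 0.29% of sh-NC 1 to 3 and 0.189%, 0.186% and 0.192% of shRBM10 A to C. By this share sh-NC 2 was the lowest of its group, whereas after TMM scaling it held the highest value of all 6 libraries for 28 of the 43 genes. With library size as the only scaling the 43 genes had a median log2 fold change of -0.39, while that of all genes moved up by 0.13.

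Promoters of replication genes often hold short words that E2F proteins bind. RefSeq promoter windows (GRCh38.p14) of 250 bases before and 50 after the annotated start are given for genes chosen after their values were seen: CDC25A, E2F1, GINS2 and MCM2, which were lower and hold such a word, RFC2, which was lower and holds none, RRM1 and ORC2, the 2 highest, and MCM6, the ring subunit with a positive log2 fold change. The capitals mark any of the words TTTCGCGC, TTTGGCGC, TTTCCCGC and TTTGCCGC on either strand, overlaps included, and each window reads 5′ to 3′ along the gene's strand.
CDC25A, chr3:48188368-48188667, minus strand: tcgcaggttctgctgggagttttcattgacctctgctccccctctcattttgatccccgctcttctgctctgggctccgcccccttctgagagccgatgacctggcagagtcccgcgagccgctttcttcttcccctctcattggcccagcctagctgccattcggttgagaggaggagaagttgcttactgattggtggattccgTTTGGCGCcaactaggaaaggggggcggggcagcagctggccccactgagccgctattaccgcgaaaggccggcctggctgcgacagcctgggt
E2F1, chr20:33686336-33686635, minus strand: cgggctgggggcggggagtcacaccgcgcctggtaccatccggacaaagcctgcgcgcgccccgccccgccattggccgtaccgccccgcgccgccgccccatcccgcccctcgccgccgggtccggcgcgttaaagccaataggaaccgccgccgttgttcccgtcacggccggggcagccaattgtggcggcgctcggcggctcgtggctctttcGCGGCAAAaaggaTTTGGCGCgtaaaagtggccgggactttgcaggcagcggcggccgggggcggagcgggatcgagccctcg
GINS2, chr16:85688905-85689204, minus strand: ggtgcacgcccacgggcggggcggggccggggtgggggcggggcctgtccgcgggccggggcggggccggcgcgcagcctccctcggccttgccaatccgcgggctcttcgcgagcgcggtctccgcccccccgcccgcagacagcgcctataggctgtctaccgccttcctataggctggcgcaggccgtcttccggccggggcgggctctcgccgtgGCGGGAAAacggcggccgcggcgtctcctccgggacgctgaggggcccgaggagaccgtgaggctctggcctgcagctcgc
MCM2, chr3:127598161-127598460, plus strand: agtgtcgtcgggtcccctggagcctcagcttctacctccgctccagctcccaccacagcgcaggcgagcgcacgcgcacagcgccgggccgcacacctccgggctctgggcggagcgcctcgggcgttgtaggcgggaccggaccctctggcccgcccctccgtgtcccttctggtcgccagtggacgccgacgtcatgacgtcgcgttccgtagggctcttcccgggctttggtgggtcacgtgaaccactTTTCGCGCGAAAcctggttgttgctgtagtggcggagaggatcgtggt
MCM6, chr2:135876394-135876693, minus strand: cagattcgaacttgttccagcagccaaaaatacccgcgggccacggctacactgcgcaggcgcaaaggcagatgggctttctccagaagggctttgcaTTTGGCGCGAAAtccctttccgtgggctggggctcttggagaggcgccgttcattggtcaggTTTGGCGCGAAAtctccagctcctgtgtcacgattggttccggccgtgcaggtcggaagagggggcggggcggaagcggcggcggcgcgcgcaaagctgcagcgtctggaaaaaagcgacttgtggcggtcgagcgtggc
RFC2, chr7:74254350-74254649, minus strand: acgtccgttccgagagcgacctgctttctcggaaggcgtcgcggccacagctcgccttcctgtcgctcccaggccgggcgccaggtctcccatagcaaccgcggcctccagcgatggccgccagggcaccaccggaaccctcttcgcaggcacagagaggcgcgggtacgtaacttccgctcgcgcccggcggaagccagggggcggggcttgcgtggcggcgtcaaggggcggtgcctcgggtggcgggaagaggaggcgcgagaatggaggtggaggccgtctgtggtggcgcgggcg
ORC2, chr2:200963611-200963910, minus strand: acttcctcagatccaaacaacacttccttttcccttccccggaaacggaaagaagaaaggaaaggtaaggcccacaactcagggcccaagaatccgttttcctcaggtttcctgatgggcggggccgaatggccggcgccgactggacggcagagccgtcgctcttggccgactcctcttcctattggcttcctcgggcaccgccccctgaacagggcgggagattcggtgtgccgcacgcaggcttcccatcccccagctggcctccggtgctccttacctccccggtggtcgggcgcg
RRM1, chr11:4094435-4094734, plus strand: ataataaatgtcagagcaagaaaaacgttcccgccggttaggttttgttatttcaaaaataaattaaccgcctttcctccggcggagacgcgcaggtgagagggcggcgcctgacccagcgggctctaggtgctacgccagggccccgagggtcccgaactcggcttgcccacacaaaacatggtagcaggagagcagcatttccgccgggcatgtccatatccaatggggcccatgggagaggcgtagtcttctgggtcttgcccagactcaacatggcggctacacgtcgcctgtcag
Counting the base before the start as -1 and the first transcribed base as 1, the word began at -44 in CDC25A, at -33 and -20 in E2F1, at -31 in GINS2 and at 3 and 7 in MCM2, and MCM6 held 4 words in overlapping pairs, at -152, -148, -90 and -86. The windows of RFC2, ORC2 and RRM1 held none of these words. Promoter entries were found for 38 of the 43 genes, in 49 windows, and not for MCM4, MCM5, GINS4, POLD3 and CCNE2. An E2F word lay in a window of 20 of the 38 genes (52.6%) and of 6.59% of the 10339 tested genes with an entry, or in 21 of the 49 windows and 4.83% of all 15110. The 20 genes with a word had a median log2 fold change of -0.51, with 18 of them lower, and the 18 genes without one had a median of -0.57, with 14 lower. The 2 medians were close, and the difference between these sets of genes was not tested. Only the exact words were searched, so the genes without one may hold other E2F sites. The word CCAAT, which the factor NF-Y binds, lay in a window of 23 of the 38 genes (60.5%) and of 42.9% of all. TTTGAA or TTCGAA, the words of the cell cycle homology region found in promoters of G2 and mitosis genes, lay in windows of 2 of the 38 genes (5.26%), MCM6 and RRM1, and of 15.4% of all.

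Origin licensing genes mark and prepare the sites where replication starts. Of the 5 measured, 4 were lower and 1 was higher, with a median log2 fold change of -0.54. ORC1, the subunit of the origin recognition complex whose level follows the cell cycle (chr1:52372829-52409503), read 493, 585 and 580 normalized counts in sh-NC 1 to 3 against 313, 318 and 383 in shRBM10 A to C. The groups did not overlap, and the log2 fold change was -0.71 ± 0.24 (SE; edgeR adjusted p = 0.162). ORC2, another subunit of the complex (chr2:200908977-200963660), went the other way, with 225, 198 and 222 in sh-NC against 572, 382 and 245 in shRBM10. Library C lay just above the highest sh-NC value and A far above it. The log2 fold change of ORC2 was 0.89 ± 0.33 (SE; edgeR adjusted p = 0.173), and it was 0.54 without shRBM10 A and 0.28 with the trend over GC content removed, as described below. CDT1, which loads the MCM ring with CDC6 (chr16:88803789-88809258), read 1253, 1668 and 1441 in sh-NC against 735, 1060 and 1209 in shRBM10. Its groups were apart but close, with a log2 fold change of -0.54 ± 0.25 (SE; edgeR adjusted p = 0.217), which became -0.08 with the GC trend removed. ORC6, the smallest subunit, had a log2 fold change of -0.55 and did not overlap, and CDC6, the loading ATPase, had one of -0.47 with overlapping groups.

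The MCM2 to MCM7 proteins form the ring of the replicative helicase in equal numbers. MCM2, MCM3, MCM4, MCM5 and MCM7 were all lower in every shRBM10 library than in any sh-NC library, as were 16.2% of all genes. Each had an unadjusted p under 0.05 in edgeR, against 8.60% of all genes lower at that limit, whereas MCM6 was not lower on average. MCM5 (chr22:35400140-35455031) read 1885, 2153 and 2056 normalized counts in sh-NC 1 to 3 against 601, 733 and 1125 in shRBM10 A to C. Even the highest shRBM10 value, in C, was far below the lowest sh-NC value, and the log2 fold change was -1.31 ± 0.27 (SE; edgeR adjusted p = 0.12, DESeq2 adjusted p = 0.00414). It ranged from -1.65 to -1.13 when each library was left out in turn. MCM2 (chr3:127598411-127622436) read 3117, 3596 and 3472 in sh-NC against 1558, 1717 and 2213 in shRBM10. The groups of MCM2 were again well apart, with a log2 fold change of -0.89 ± 0.23 (SE; edgeR adjusted p = 0.144). MCM4 (chr8:47960941-47978160) read 2147, 2946 and 2459 in sh-NC against 1436, 1337 and 1650 in shRBM10, with no overlap and a log2 fold change of -0.77 ± 0.22 (SE; edgeR adjusted p = 0.153). The log2 fold change was -0.83 for MCM7 and -0.48 for MCM3. MCM6 (chr2:135839626-135876443) read 579, 592 and 649 in sh-NC against 951, 775 and 383 in shRBM10. Libraries A and B were above all sh-NC libraries and C below all of them, so that the log2 fold change of 0.21 ± 0.32 (SE) averages libraries of opposite direction, and it became -0.07 without A and -0.22 with the GC trend removed.

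The same values can be set side by side as a ratio inside each library, which no scaling factor changes, for the ring subunits with the highest and the lowest fold change, a pair chosen after its values were seen. The ratio of MCM6 to MCM5 counts was 0.307, 0.275 and 0.315 in sh-NC 1 to 3 against 1.58, 1.06 and 0.34 in shRBM10 A to C. Library C was thus near the sh-NC values and A and B far above them. The transcripts of the pair differ in GC content, at 43.1% for MCM6 and 56.6% for MCM5, and with the GC trend removed all 6 subunits had negative log2 fold changes. Per kilobase of the longest annotated transcript, the mean normalized counts in sh-NC ran from 162 for MCM6 through 465 for MCM3, 575 for MCM5, 602 for MCM4 and 937 for MCM2 to 2264 for MCM7. The libraries of MCM4 and MCM5 overlapped in this order, while MCM6 was the lowest subunit and MCM7 the highest in each sh-NC library. In shRBM10 the means were 188 for MCM6, 232 for MCM5, 332 for MCM3, 352 for MCM4, 505 for MCM2 and 1272 for MCM7, and MCM5 lay below MCM6 in library A, at 170 against 254, but above it in C, at 318 against 102.

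**Figure D1:**
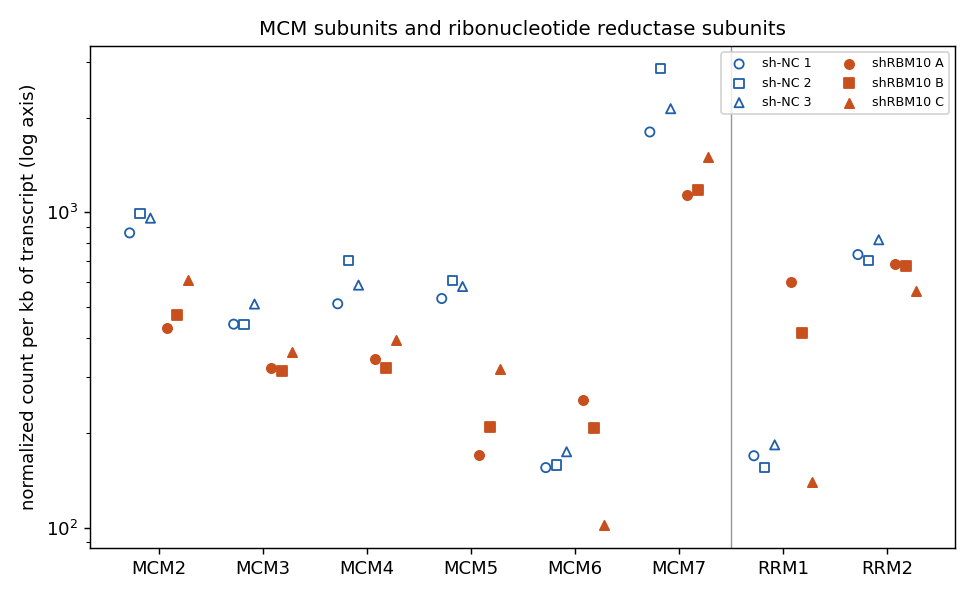
Normalized count per kilobase of transcript on a log axis for the 6 MCM subunits and, right of the line, the subunits RRM1 and RRM2 of ribonucleotide reductase. Each symbol is 1 library, open blue for sh-NC 1 to 3 and filled orange for shRBM10 A to C. All MCM subunits but MCM6 are lower in every shRBM10 library, and RRM1 and MCM6 are high in A and B but below the sh-NC values in C.

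Helicase activation needs CDC45 and the 4 GINS subunits, which complete the moving helicase, and MCM10, which helps it start. Of these 6 genes 5 were lower, with a median log2 fold change of -0.61. CDC45 (chr22:19479466-19520612) read 592, 819 and 684 normalized counts in sh-NC against 345, 331 and 368 in shRBM10, a tight lower group without overlap. It was 2.01-fold lower, with an SE of 0.24 on the log2 scale (edgeR adjusted p = 0.135, DESeq2 adjusted p = 0.0151). GINS2 (chr16:85676198-85688954) read 343, 578 and 390 in sh-NC against 203, 206 and 195 in shRBM10. The 3 shRBM10 values were close to each other while sh-NC 2 was the highest of all, and the log2 fold change was -1.12 ± 0.29 (SE; edgeR adjusted p = 0.144, DESeq2 adjusted p = 0.0155). GINS4 (chr8:41529261-41545030) read 420, 748 and 502 in sh-NC against 348, 292 and 330 in shRBM10, without overlap, at a log2 fold change of -0.78 ± 0.28 (SE; edgeR adjusted p = 0.17). GINS3 at -0.40 did not overlap either, and GINS1 at -0.43, or -0.23 without sh-NC 2, did. MCM10 read 120, 63.8 and 139 in sh-NC against 179, 161 and 106 in shRBM10, at a log2 fold change of 0.46 with overlapping groups, which was 0.11 without sh-NC 2 and 0.30 without shRBM10 A.

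The sliding clamp PCNA holds polymerases on DNA, and the RFC subunits load it. All 5 genes of this group had negative log2 fold changes, from -1.02 to -0.03, with a median of -0.25. In the TMM-scaled edgeR fit RFC2 was the member with an unadjusted p under 0.05, against 8.60% of all genes lower at that limit. RFC2 (chr7:74231502-74254399) read 1281, 2460 and 1288 normalized counts in sh-NC against 707, 815 and 954 in shRBM10. Its groups did not overlap, but sh-NC 2 was far above the other sh-NC libraries, and the log2 fold change of -1.02 ± 0.30 (SE; edgeR adjusted p = 0.153, DESeq2 adjusted p = 0.0443) was -0.72 without it. PCNA (chr20:5114953-5126622) read 3669, 4982 and 4094 in sh-NC against 3406, 3870 and 3461 in shRBM10. Library B was above sh-NC 1, and the log2 fold change was -0.25 ± 0.22 (SE; edgeR adjusted p = 0.478). RFC5 (chr12:118016703-118041448) read 435, 800 and 486 in sh-NC against 455, 435 and 360 in shRBM10, which overlapped, at a log2 fold change of -0.46 ± 0.29 (SE; edgeR adjusted p = 0.325), or -0.23 without sh-NC 2. RFC4 had a log2 fold change of -0.21 and RFC3 of -0.03, the latter with a sign that turned positive under upper-quartile or library-size scaling. With the GC trend removed, RFC2 was at -0.72, RFC3 at -0.71, RFC4 at -0.40, RFC5 at -0.73 and PCNA at -0.44. In that edgeR fit 4 of the 5 were lower at an unadjusted p under 0.05, against 6.33% of all genes.

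Polymerase alpha with primase starts each strand, and polymerases delta and epsilon extend the lagging and the leading strand. In this group of 8 genes 5 had negative and 3 positive log2 fold changes, with a median of -0.23, and none of the 3 positive ones had an unadjusted p under 0.05. POLA2, the accessory subunit of polymerase alpha (chr11:65261962-65305985), read 1216, 1712 and 1295 normalized counts in sh-NC against 660, 715 and 870 in shRBM10, without overlap. Its log2 fold change was -0.91 ± 0.24 (SE; edgeR adjusted p = 0.146, DESeq2 adjusted p = 0.0354). POLA1, the catalytic subunit, read 168, 66.5 and 200 in sh-NC against 341, 237 and 96.2 in shRBM10, so that A and B were high, sh-NC 2 was the lowest, and the log2 fold change was 0.62 ± 0.51 (SE). It was 0.20 without sh-NC 2, 0.20 without shRBM10 A and 0.17 with the GC trend removed. POLD1, the catalytic subunit of polymerase delta (chr19:50384323-50418018), read 1305, 1561 and 1338 in sh-NC against 571, 706 and 953 in shRBM10, without overlap. Its log2 fold change was -0.91 ± 0.25 (SE; edgeR adjusted p = 0.153, DESeq2 adjusted p = 0.044). POLD3, an accessory subunit of the same enzyme, had a log2 fold change of 0.58 ± 0.34 (SE) with overlapping groups, which was 0.25 without shRBM10 A and 0.13 with the GC trend removed. POLE, the catalytic subunit of polymerase epsilon (chr12:132623762-132687342), read 1198, 791 and 1389 in sh-NC against 611, 565 and 846 in shRBM10. Library C lay above sh-NC 2, and the log2 fold change was -0.74 ± 0.28 (SE; edgeR adjusted p = 0.175). Its accessory subunit POLE2, at 38.7 to 84.2 normalized counts, and the primase subunits PRIM1 and PRIM2 had log2 fold changes of -0.29, -0.17 and 0.24, all with overlapping groups. Under library-size scaling the sign of PRIM1 turned, and with the GC trend removed that of PRIM2 did.

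Deoxynucleotides are supplied by ribonucleotide reductase (RRM1 and RRM2), thymidylate synthase (TYMS) and thymidine kinase (TK1). RRM1 (chr11:4094685-4138932) read 521, 478 and 562 normalized counts in sh-NC against 1852, 1272 and 427 in shRBM10. Libraries A and B were more than 2 times as high as every sh-NC library, and C was below all of them. The log2 fold change was 1.19 ± 0.44 (SE; edgeR adjusted p = 0.172). It was 1.53 without C and 0.71 without A, and 0.70 with the GC trend removed. RRM2, the small subunit and its cell-cycle-regulated partner, read 2701, 2584 and 3009 in sh-NC against 2524, 2477 and 2070 in shRBM10, a small difference without overlap at a log2 fold change of -0.23 ± 0.21 (SE). The ratio of RRM1 to RRM2 counts was 0.193, 0.185 and 0.187 in sh-NC 1 to 3 against 0.734, 0.513 and 0.206 in shRBM10 A to C, so that all 3 shRBM10 ratios were above the sh-NC ratios, C by little. TK1 (chr17:78174079-78187204) read 2949, 5072 and 3214 in sh-NC against 1473, 1929 and 2398 in shRBM10, without overlap. Its log2 fold change was -0.95 ± 0.29 (SE; edgeR adjusted p = 0.153). TYMS (chr18:657653-673578) read 907, 1048 and 878 in sh-NC against 580, 699 and 786 in shRBM10, again without overlap, at -0.46 ± 0.23 (SE; edgeR adjusted p = 0.236).

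The G1/S regulators among the 43 genes held the member with the lowest p. CDC25A (chr3:48157146-48188417), the phosphatase that removes inhibitory phosphates from CDK2, read 326, 419 and 386 normalized counts in sh-NC against 147, 105 and 138 in shRBM10. Every shRBM10 value was under the lowest sh-NC value by more than the whole spread of the sh-NC group. The log2 fold change was -1.54 ± 0.28 (SE; edgeR adjusted p = 0.1), with adjusted p-values from 0.00011 in DESeq2 to 0.452 over the alternatives. It stayed between -1.63 and -1.41 when each library was left out, and was -1.31 with the GC trend removed. E2F1 (chr20:33675477-33686385), the transcription factor that activates S phase genes, read 693, 825 and 811 in sh-NC against 301, 332 and 477 in shRBM10, without overlap. Its log2 fold change was -1.07 ± 0.26 (SE; edgeR adjusted p = 0.138, DESeq2 adjusted p = 0.0188). CCNE1, cyclin E1 (chr19:29811991-29824312), read 197, 307 and 231 in sh-NC against 176, 139 and 171 in shRBM10, also without overlap, at -0.59 ± 0.29 (SE; edgeR adjusted p = 0.229). Cyclin E2, CCNE2, had a log2 fold change of 0.32 ± 0.33 (SE) with overlapping groups, which became -0.25 with the GC trend removed.

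The last group joins Okazaki fragments (FEN1, a flap nuclease, and LIG1, a ligase), places histones behind the fork (CHAF1A and CHAF1B) and directs maintenance methylation (UHRF1). All 5 genes were lower, at log2 fold changes from -1.05 to -0.59. In edgeR 4 had an unadjusted p under 0.05, against 8.60% of all genes lower at that limit. With the GC trend removed the median of the 5 was -0.37, and 1 was lower at that limit, against 6.33% of all genes. CHAF1B (chr21:36385392-36419015) read 406, 439 and 416 normalized counts in sh-NC against 211, 218 and 269 in shRBM10, which did not overlap. Its log2 fold change was -0.85 ± 0.25 (SE; edgeR adjusted p = 0.153, DESeq2 adjusted p = 0.0441). FEN1 (chr11:61792911-61797238) read 1067, 1515 and 1171 in sh-NC against 735, 781 and 823 in shRBM10, without overlap, at -0.68 ± 0.23 (SE; edgeR adjusted p = 0.158). UHRF1 (chr19:4903080-4962154) read 1325, 547 and 1491 in sh-NC against 477, 477 and 667 in shRBM10. Library sh-NC 2 lay among the shRBM10 values, and the log2 fold change of -1.05 ± 0.36 (SE; edgeR adjusted p = 0.165) was -1.46 without it. LIG1 had a log2 fold change of -0.64 without overlap, and CHAF1A one of -0.59 with overlap.

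**Figure D2:**
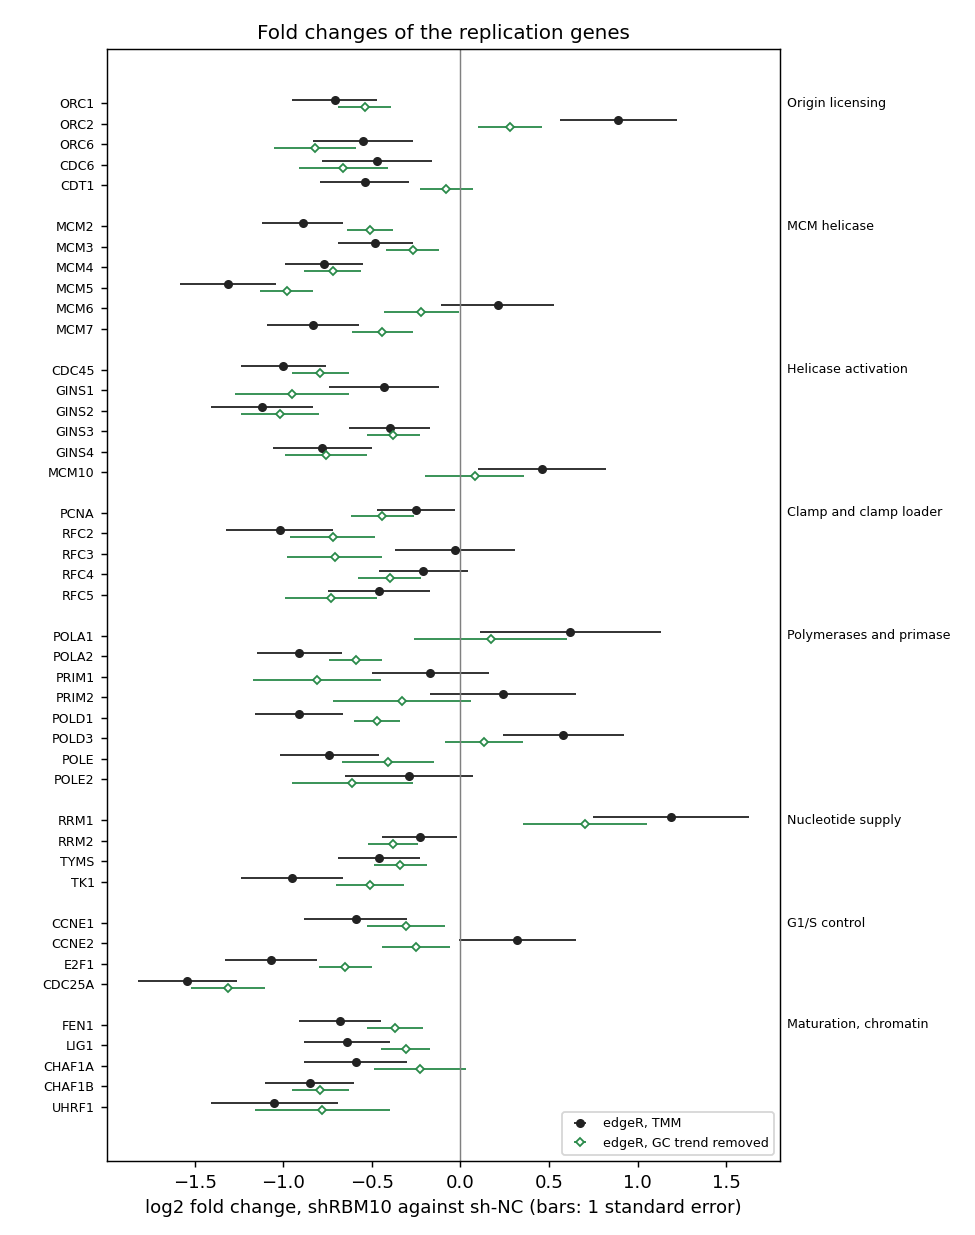
The log2 fold change of shRBM10 against sh-NC with 1 standard error for each gene, ordered by role, from the TMM-scaled edgeR fit (black circles) and from the fit with the GC trend removed (green diamonds). With TMM 35 of the 43 genes lie left of 0, and with the GC trend removed 38 do.

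The difference between the groups went with the GC content of transcripts across the whole table, so it was set beside the result. Spearman's rho between log2 fold change and the GC content of the longest annotated transcript was -0.61 over 12566 genes and -0.79 over the 43 genes, points that share the same 6 libraries. The 8 genes with a positive log2 fold change had GC contents of 36.9% to 43.3%, and the 35 with a negative one 39.1% to 65%, while the medians of the 43 genes and of all genes were alike, at 48.7% and 49.2%. At a GC content of 50% or more, all 19 replication genes were lower, with a median of -0.89, against a median of -0.27 and 75.2% of genes lower among all 6020 genes of that range. Between 45% and 50% all 10 were lower, with a median of -0.46, against 0.11 and 40.4%. Under 45%, 6 of 14 were lower, with a median of 0.23, against 0.67 and 16% of all genes. In each range the replication genes thus had a lower median than all genes did.

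With the GC trend of each library removed, the 43 genes had a median log2 fold change of -0.47, against 0.10 over all genes. In that fit 38 of the 43 were lower, against 5121 of all 12620 genes. At an unadjusted p under 0.05 in that edgeR fit, 23 were lower and 0 higher, against 6.33% and 12.1% of all genes. The groups did not overlap for 29 genes that were lower and 0 that were higher, against 10.7% and 18.9% of all genes. At an adjusted p under 0.05 and the same fold limit 0 of the 43 genes were called, and 8 of all genes. The lowest values in that fit were CDC25A at -1.31, GINS2 at -1.02, MCM5 at -0.98 and GINS1 at -0.95, and RRM1 was at 0.70 and ORC2 at 0.28. Of the 43 log2 fold changes 18 became smaller by more than 1.5 times, 8 became larger by more than 1.5 times and 3 changed sign. Among the 20 genes lower at an unadjusted p under 0.05, 10 became smaller by that much, such as E2F1 from -1.07 to -0.65, TK1 from -0.95 to -0.51, POLD1 from -0.91 to -0.47, MCM2 from -0.89 to -0.51 and MCM7 from -0.83 to -0.44. The 8 that became larger were GINS1, PCNA, RFC3, RFC4, RFC5, PRIM1, POLE2 and RRM2. The GC trend also differed between libraries of the same group. Against the sh-NC mean, Spearman's rho between a gene's level and its GC content was -0.71 in shRBM10 A, -0.66 in B and -0.14 in C, and -0.19, 0.21 and -0.20 in sh-NC 1 to 3. In library C, whose trend was within the sh-NC range, 34 of the 43 genes lay below the lowest sh-NC value and 1 above the highest, against 24% and 24.7% of all genes. In A these counts were 28 and 8, against 36% and 40.5% of all genes, and in B 29 and 7, against 32.8% and 36%. The median difference of the 43 genes from the sh-NC mean was -0.63 in A, -0.56 in B and -0.55 in C on the log2 scale.

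Other genes of the cell cycle were read from 3 further lists. For comparison, 8.60% of all genes were lower and 15.7% higher at an unadjusted p under 0.05 in edgeR. Without overlap, 16.2% of all genes were lower and 13.8% higher. Of 37 other replication genes, all tested, 7 were lower and 1 higher at an unadjusted p under 0.05, with a median log2 fold change of 0.04 and 9 lower and 1 higher without overlap. The 3 with the smallest p were CDCA7, a chromatin remodelling partner, at -1.26 (edgeR adjusted p = 0.118), RECQL4, a helicase, at -0.86 and ASF1B, a histone chaperone, at -0.86 (both edgeR adjusted p = 0.153). Of 32 G1/S regulators outside the 43 genes 31 were tested, with 3 lower, 3 higher and a median of 0.18. CDKN2B, the CDK4 and CDK6 inhibitor p15, was at 1.12 (edgeR adjusted p = 0.147), RBL2, the pocket protein p130 that binds E2F proteins in resting cells, at 1.23 (edgeR adjusted p = 0.153), and the transcription factor MYBL2 at -0.78 (edgeR adjusted p = 0.156). Of 39 G2 and mitosis genes, all tested, 11 were lower and 4 higher, with a median of -0.27 and 15 lower and 1 higher without overlap. BIRC5, or survivin, was at -1.17 (edgeR adjusted p = 0.133), the transcription factor FOXM1 at -1.03 (edgeR adjusted p = 0.137) and PTTG1, or securin, at -1.39 (edgeR adjusted p = 0.144). No gene of these lists was called at an adjusted p under 0.05 in edgeR. DESeq2 with the fold limit called 2, 0 and 3 of them lower, in the order given, against 0.998% of the genes it tested. It called 0, 2 and 0 higher, against 3.73%. With the GC trend removed, the medians of the 3 lists were -0.23, 0.08 and -0.31, against 0.10 over all genes. In that fit 25 of 37, 13 of 31 and 28 of 39 genes were lower, against 5121 of all 12620 genes. At an unadjusted p under 0.05 in edgeR, 8, 2 and 12 of them were lower and 1, 4 and 0 higher, against 6.33% and 12.1% of all genes.

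The use of alternative transcripts, a readout apart from the gene's level, was tested for 33 of the 43 genes, those with at least 2 transcripts past the filter. Of the 33, 0 were called at an adjusted p under 0.05 by edgeR's diffSpliceDGE with a Simes p per gene. Over all genes it called 8 of 8348 (0.0958%). At an unadjusted Simes p under 0.05 there was 1 gene of the 33, against 229 of the 8348, which is a similar share. That gene was MCM7. By the gene-level F test of the same fit 1 of the 33 was called, again MCM7 (adjusted p = 0.013), against 0.515% of genes. PCNA and CHAF1B had unadjusted p-values of 0.00898 and 0.0196 by that F test, but adjusted p-values of 0.493 and 0.782. The main MCM7 transcript, NM_005916, took 92.4%, 94.8% and 93.3% of the estimated counts of the gene in sh-NC 1 to 3 and 82.2%, 86.2% and 84.3% in shRBM10 A to C. The predicted transcript XM_005250348 took 6.16%, 4.33% and 5.24% in sh-NC and 14.5%, 11% and 13% in shRBM10. Its own estimated counts were 380, 281 and 386 against 499, 423 and 629, while those of the main transcript were 5707, 6155 and 6865 against 2832, 3308 and 4088. So the lower MCM7 level lay in the main transcript. By these unscaled counts XM_005250348 was higher in each shRBM10 library than in any sh-NC library. The gene-level TMM factor of sh-NC 2 was 0.738, and the level of this transcript was not tested. Exons of MCM7 overlap those of AP4M1 on the opposite strand, and 41.1% of the transcript estimates are whole numbers, so these shares rest on how shared reads were divided.

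Exons of 20 of the 43 genes overlap exons of another gene in GENCODE release 29, of a protein-coding gene for 14, and 6 genes (PCNA, RFC3, RFC5, RRM2, TYMS and FEN1) have a named pseudogene copy. How reads shared with these were counted was not given in the sources used here.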

How the data were processed

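The authors deposited, per gene and per RefSeq transcript, estimated counts for each library, and the submitters' processing notes name the build hg38. The aligner, counting tool and annotation are not given in the sources used here. Of the gene table's estimated counts 87.5% were whole numbers. The 18 columns of other per-library measures (FPKM, TPM and normalized counts) and 8 columns of group means in each table were not used. Columns were assigned to groups by name. The deposited estimated counts were rounded, filtered with filterByExpr, scaled by TMM and fitted by edgeR 4.0.16 (glmQLFit, then glmQLFTest) in R 4.3.3 with limma 3.58.1, over all 6 libraries without covariates, with Benjamini-Hochberg adjustment over 12620 genes. A normalized count is a count divided by the TMM-scaled library size and multiplied by the mean total count of the libraries. The SE is the log2 fold change divided by the square root of F. Transcript usage was tested with diffSpliceDGE. The scripts were tested on simulated data.

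The 43 genes, the other lists and the tests were chosen with earlier results of these data known. All 43 genes are accounted for by role, and in each role up to 3 with the smallest unadjusted p are given by library, with RBM10 and up to 3 genes of each other list. Others given by library, namely MCM6, MCM10, POLA1 and RRM2, were chosen after their values were seen. Gene coordinates are from RefSeq (GRCh38.p14), matched by gene ID. GC content and length are those of the longest GENCODE 29 transcript, found for 99.6% of tested genes. GC and length trends were smoothed per library and used as offsets. The alternatives were RLE, upper-quartile and library-size scaling, no filter, at least 10 counts in every library, DESeq2 1.42.0, limma-voom, leaving out each library, sh-NC 1 and 3 as 1 replicate, and the trend corrections.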

Additional observations from a re-analysis of the deposited data

How the results depend on the processing

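The 43 genes had a negative median log2 fold change under every alternative run. It was -0.39 with library size only and -0.41 with GC and length trends removed, and ran from -0.68 to -0.50 when each library was left out. The count called at an adjusted p under 0.05 with the fold limit was 6 in DESeq2, which called 573 of all genes, and 1, CDC25A, with GC and length trends removed, which called 147 of all genes. The count lower at an unadjusted p under 0.05 was 7 with the fold limit (1.53% of all genes). When each library was left out it ran from 13 without shRBM10 B (3.01%) to 25 without shRBM10 C (15.9%). The count higher was 1 in limma-voom (13.9% of all genes) and 1 with sh-NC 1 and 3 as 1 replicate (14.5%). It was 0 with the GC trend removed (12.1%), 0 with GC and length trends removed (17.4%) and 1 with the fold limit (10.1%). When each library was left out it ran from 0 to 3, the 3 without shRBM10 C (20.3%). The count without overlap and higher was 0 with the GC trend and 0 with both trends removed, and ran from 1 to 7 when each library was left out, the 7 without shRBM10 C, where 33.9% of all genes did so. The count with shifted transcript usage was 1 by the gene-level F test.

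Of 688 refitted fold changes 14, of 6 genes, changed sign. MCM6 was at -0.07 without shRBM10 A, within a range of -0.07 to 0.46 over the left-out libraries, at -0.22 with the GC trend and at -0.23 with both trends removed. RFC3 was at 0.02 with upper-quartile factors, 0.13 with library size only, 0.04 without sh-NC 2 and 0.19 without shRBM10 C, within -0.25 to 0.19 over the left-out libraries. PRIM1 was at 0.03 with library size only and 0.09 without sh-NC 2 (-0.38 to 0.09 over the left-out libraries), and POLE2 at 0.01 without sh-NC 2 (-0.51 to 0.01). PRIM2 was at -0.33 and -0.14, and CCNE2 at -0.25 and -0.22, with the GC trend and with both trends removed. The causes were not tested. No paired analysis was possible because only 1 shRBM10 column carries a replicate number. Among the 43 genes the SE was largest for POLA1, at 0.51, and RRM1, at 0.44.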
